A study of Mus musculus with 10 samples.

Results

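The genes described here are 10 adipokine and white-adipocyte genes, Lep, Adipoq, Retn, Cfd, Agt, Npr3, Sncg, Cyp2e1, Wfdc21 and Slc7a10, named by a fixed list and looked up by symbol among the 41249 genes counted. Expression was measured by RNA sequencing of whole interscapular brown adipose tissue (iBAT) from 10 mice, 5 Axl KO and 5 wild-type (WT). Axl encodes a receptor tyrosine kinase of the TAM family. The Axl KO mice carried Axl tm1a(EUCOMM)HMGU, a knockout-first allele made from a pair of embryonic stem cell clones, in which a splice acceptor, LacZ and neomycin cassette lies within the gene and is present in every cell of the body. The WT controls were littermates on the same C57BL/6 background, and the sequenced mice were male. All 10 mice ate a high-fat diet (HFD), which by the series record began at 6 to 8 weeks of age and lasted 24 weeks, so there was no lean control and a value here describes obesogenic feeding only. The sources differ on both the starting age and the duration. The labels number the samples without naming animals, and the p-values measure the spread between these samples.

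Brown fat burns fuel to make heat through the mitochondrial uncoupling protein encoded by Ucp1, whereas white fat stores triglyceride and secretes hormones known as adipokines. Leptin signals the size of fat stores to the brain, adiponectin raises insulin sensitivity, and resistin, adipsin and angiotensinogen are further secreted products of adipocytes. Under prolonged overfeeding or at warm temperature, brown fat can take up large lipid droplets and white-fat genes, a change called whitening. The comparison asks whether genes of this kind differed in iBAT between the genotypes after HFD.

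None of the 10 genes was called different between Axl KO and WT by edgeR's quasi-likelihood test (adjusted p under 0.05), and in none were the groups free of overlap. Of the 10 genes, 8 had enough reads to be tested, which took a mean over 1 CPM (counts per 1000000 reads of the library), and 5 of them had a higher and 3 a lower estimate in Axl KO. The median log2 fold change of the 8 was 0.059, against -0.00059 over all 13739 genes tested. Slc7a10, a neutral amino acid transporter of white adipocytes, had the smallest p of the list (log2 fold change 0.61, SE 0.23, edgeR unadjusted p = 0.0187, adjusted p = 0.571) and was the only 1 of the 8 at an unadjusted p under 0.05, while DESeq2 also called 0 of the 8. The background was equally sparse: 1 gene, Axl itself, was called over the whole table (0.00728%), 4.54% of genes were higher and 3.86% lower in Axl KO at an unadjusted p under 0.05, and 1.35% did not overlap between the groups. At any p, 6840 of the genes tested had higher and 6899 lower estimates in Axl KO. Most of the 8 genes varied widely between mice of the same genotype, and in part together: Npr3 with Sncg, Cfd with Cyp2e1, and Npr3 inversely to Cyp2e1. The share of gene pairs so correlated over all genes tested was not computed.

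The libraries held 5431014 to 9580215 counted reads each. Axl had 3 to 15 counts in each Axl KO library and 224 to 383 in each WT library, and its mean was 1.57 ± 0.65 CPM in Axl KO and 43.1 ± 5.86 CPM in WT (SD, n = 5 each; exact permutation test, two-sided p = 0.00794, the smallest that 5 against 5 allows). The tissue label was borne out by Ucp1 at 2990 to 7632 CPM and Cidea at 1501 to 1975 CPM in every mouse. Axl KO replicates 1 and 2 stood apart on the first principal component and held little skeletal muscle RNA: the 8 muscle genes summed to 90.0 and 87.8 CPM there, against 600.4 to 2905 CPM in the other Axl KO mice and 758.6 to 3489 CPM in WT, with none of the 8 at 0 in all mice. All 8 muscle genes had lower estimates in Axl KO, none called. The part of this difference in the results was not tested. The value without these 2 mice together, and with the muscle genes as a covariate, is given for each tested gene of the fixed list. All values are from bulk tissue, in which fewer cells of a type and less RNA per cell cannot be told apart.

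The proximal promoters of 4 genes are shown because 2 of them, Lep and Npr3, were high in the same mice, while the other 2, Cfd and Retn, varied in parallel. Each is the 250 bases before the RefSeq start site on GRCm38.p6, read 5′ to 3′ on the strand of the gene, with capitals marking matches to the motifs named after them. Lep is at chr6:29059971-29060220 on the plus strand, Npr3 at chr15:11907372-11907621 on the minus strand, Cfd at chr10:79890603-79890852 on the plus strand and Retn at chr8:3655520-3655769 on the plus strand.
Lep: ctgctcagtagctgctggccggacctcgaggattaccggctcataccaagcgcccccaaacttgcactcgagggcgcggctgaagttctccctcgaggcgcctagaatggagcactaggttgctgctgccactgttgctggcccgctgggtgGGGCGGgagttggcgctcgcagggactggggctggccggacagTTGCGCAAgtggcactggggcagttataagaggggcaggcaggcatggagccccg
Npr3: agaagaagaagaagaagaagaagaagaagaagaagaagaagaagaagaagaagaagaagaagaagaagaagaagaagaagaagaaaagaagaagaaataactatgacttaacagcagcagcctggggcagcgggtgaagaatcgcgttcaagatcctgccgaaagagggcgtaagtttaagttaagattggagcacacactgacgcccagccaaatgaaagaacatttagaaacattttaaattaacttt
Cfd: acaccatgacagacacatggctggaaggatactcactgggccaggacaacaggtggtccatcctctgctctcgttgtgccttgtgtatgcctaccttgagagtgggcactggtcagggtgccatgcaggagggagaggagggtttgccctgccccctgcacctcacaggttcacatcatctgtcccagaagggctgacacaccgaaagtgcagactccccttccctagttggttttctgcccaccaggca
Retn: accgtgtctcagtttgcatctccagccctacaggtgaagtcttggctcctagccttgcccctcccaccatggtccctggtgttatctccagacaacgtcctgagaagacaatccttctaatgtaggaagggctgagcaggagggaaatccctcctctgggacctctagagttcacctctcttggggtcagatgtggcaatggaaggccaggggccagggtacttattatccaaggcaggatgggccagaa

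RefSeq promoters were matched by symbol for 9 of the 10 genes, all but Wfdc21. A C/EBP-type sequence (TTNNGCAA, either strand) was found in 1 of the 9, Lep, where TTGCGCAA began 55 bases before the start. C/EBP proteins are transcription factors of adipocyte differentiation, and Lep is a known C/EBP target. The same letters occurred in 9.57% of 32536 promoter windows of equal length. A GC box of the Sp1 type (GGGCGG, either strand) was found in Lep, Sncg and Slc7a10 (33.0% of all windows), and TATAAA in Agt and Cyp2e1 (12.3% of all windows). AGGTCA, the half-site bound by nuclear receptors, was in none of the 9 and in 14.0% of all windows. None of the motifs searched occurred in the Npr3, Cfd, Retn or Adipoq window. The Npr3 window opens with a long run of GAA repeats. These matches describe letters in a short window and no binding was measured.

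Levels of different genes were compared per length, as CPM per kilobase of annotated exon. Adipoq was the highest at 552.1 CPM per kilobase, at rank 101 of the 13739 genes tested, so the adiponectin gene was among the most abundant transcripts of this tissue. Cfd followed at 307.9 and Lep at 103.8 CPM per kilobase. Adipoq exceeded Cfd in 9 of 10 mice, and Cfd exceeded Lep in only 7 of 10, so the last pair was not ordered beyond the spread between mice. Npr3 (54.2 CPM per kilobase) and Sncg (38.8 CPM per kilobase) kept their places below Lep in 10 of 10 mice. Cyp2e1 and Retn were near each other at 10.2 and 9.61 CPM per kilobase, with Cyp2e1 the higher in 5 of 10 mice. Slc7a10 at 2.49 and Wfdc21 at 1.82 CPM per kilobase were not ordered either, Slc7a10 being higher in 6 of 10 mice. Agt was the lowest in 10 of 10 mice at 0.232 CPM per kilobase.

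**Figure D1:**
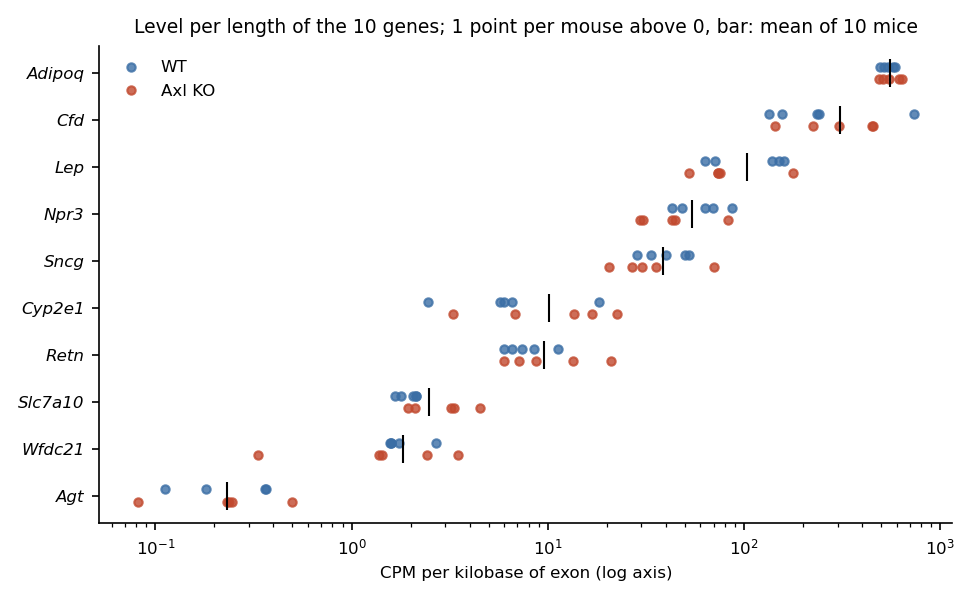
Level of the 10 genes in CPM per kilobase of exon (log axis), with 1 point per mouse (blue WT, red Axl KO) and a black bar at the mean of 10 mice. Levels run from 552.1 for Adipoq to 0.232 for Agt, both genotypes overlap in every gene, and the WT mouse with no Agt read is not drawn.

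Among the secreted hormones, Lep (GRCm38 chromosome 6, 29060220 to 29073877, plus strand) encodes leptin. Its level was 248.1, 253.9, 594.8, 246.0 and 175.8 CPM in Axl KO replicates 1 to 5, and 538.3, 468.5, 212.3, 237.6 and 505.6 CPM in WT replicates 1 to 5. The mice fell into 2 separate ranges that both genotypes shared: 6 mice at or below 253.9 CPM (4 Axl KO and 2 WT) and 4 mice at or above 468.5 CPM (1 Axl KO and 3 WT). The mean was 303.7 ± 165.8 CPM in Axl KO and 392.5 ± 155.2 CPM in WT (SD, n = 5 each). The estimated log2 fold change was -0.37 (SE 0.34, edgeR adjusted p = 0.779), a fold of 0.775 with a 95% interval of 0.467 to 1.28. The estimate was more negative without Axl KO replicate 3, the mouse with the highest level, at a log2 fold change of -0.77 (edgeR unadjusted p = 0.015, adjusted p = 0.231). It was -0.21 without Axl KO replicates 1 and 2 together and -0.30 with muscle genes as a covariate.

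Adipoq (chromosome 16, 23146536 to 23158028, plus strand) encodes adiponectin, made by adipocytes of both kinds of fat. Its level was 851.3, 877.6, 672.9, 760.8 and 706.3 CPM in Axl KO replicates 1 to 5, and 716.8, 792.0, 816.9, 751.8 and 678.8 CPM in WT replicates 1 to 5. The groups overlapped almost wholly, and the highest mouse was only 1.30-fold above the lowest. The fold was 1.03 with a 95% interval of 0.907 to 1.17 (log2 fold change 0.043, SE 0.085, edgeR adjusted p = 0.909), which made Adipoq the most narrowly bounded of the 8 genes. The sign of this small estimate turned without Axl KO replicates 1 and 2 together (-0.074) and with muscle genes as a covariate (-0.075).

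Retn (chromosome 8, 3655770 to 3660110, plus strand) encodes resistin, a hormone that in mice comes from white adipocytes. Its level was 33.3, 21.2, 11.3, 9.46 and 13.7 CPM in Axl KO replicates 1 to 5, and 10.4, 13.4, 17.8, 11.7 and 9.44 CPM in WT replicates 1 to 5. Axl KO replicates 1 and 2 were the highest of the 10 mice, and the other 3 Axl KO mice lay within the WT range. Its log2 fold change was 0.49 (SE 0.31, edgeR adjusted p = 0.669). It fell to -0.14 without those 2 mice together and to -0.011 with muscle genes as a covariate, so its sign rested on them.

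Among the secreted components of plasma cascades, Cfd (chromosome 10, 79890853 to 79892655, plus strand) encodes adipsin, the serine protease complement factor D. Its level was 420.8, 413.3, 133.2, 208.1 and 282.5 CPM in Axl KO replicates 1 to 5, and 143.5, 222.4, 674.3, 217.5 and 123.4 CPM in WT replicates 1 to 5. The highest mouse was a WT, replicate 3, and the lowest was also a WT, at a ratio of 5.46. Between genotypes the log2 fold change was 0.076 (SE 0.44, edgeR adjusted p = 0.978), and the fold interval ran from 0.542 to 2.05. Without WT replicate 3 the log2 fold change was 0.72 (edgeR unadjusted p = 0.0396, adjusted p = 0.659), and without Axl KO replicates 1 and 2 together it was -0.41. With muscle genes as a covariate it was -0.23, so its sign turned there too.

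Agt (chromosome 8, 124556534 to 124569706, minus strand), which encodes the angiotensin precursor angiotensinogen, was close to undetected. In all it had 31 counts, and the Axl KO mice held 1, 3, 4, 3 and 5 of them (replicates 1 to 5) and the WT mice 5, 2, 6, 2 and 0. A count of 0 allows up to 3 counts, or 0.378 CPM in that WT library. Wfdc21 (chromosome 11, 83746940 to 83752642, plus strand), a small secreted protein with a WAP domain, had 58 counts in all. The Axl KO mice held 4, 4, 9, 1 and 8 of them and the WT mice 5, 11, 6, 4 and 6. Both genes fell below the filter, and a difference between the genotypes was not detectable at this depth (exact permutation test on CPM, two-sided, p = 0.571 for Agt and 1.0 for Wfdc21).

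Npr3 (chromosome 15, 11839896 to 11907287, minus strand) encodes the natriuretic peptide clearance receptor, which removes the peptides without signalling through cyclic GMP. Its level was 285.5, 416.3, 776.6, 405.7 and 277.4 CPM in Axl KO replicates 1 to 5, and 654.6, 594.6, 402.7, 453.7 and 818.2 CPM in WT replicates 1 to 5. The 2 lowest mice were Axl KO, but Axl KO replicate 3 was second only to WT replicate 5. The log2 fold change was -0.43 (SE 0.27, edgeR adjusted p = 0.665). Without Axl KO replicate 3 it was -0.76 (edgeR unadjusted p = 0.00308, adjusted p = 0.152), without Axl KO replicates 1 and 2 together -0.26, and with muscle genes as a covariate -0.37. In GENCODE, 321 exonic bases of Npr3 overlap Gm5144 on the other strand, and the strand setting of the counting is not given in the sources used here.

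Sncg (chromosome 14, 34370274 to 34374789, minus strand) encodes gamma-synuclein, a small cytosolic protein of neurons and white adipocytes. Its level was 25.6, 30.4, 59.9, 22.9 and 17.5 CPM in Axl KO replicates 1 to 5, and 42.6, 34.0, 24.3, 28.7 and 44.8 CPM in WT replicates 1 to 5. Both the highest and the lowest mouse were Axl KO. Its log2 fold change was -0.14 (SE 0.28, edgeR adjusted p = 0.915), -0.53 without Axl KO replicate 3 and 0.0058 without Axl KO replicate 5. It was -0.027 without Axl KO replicates 1 and 2 together and -0.079 with muscle genes as a covariate.

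Cyp2e1 (chromosome 7, 140763739 to 140774987, plus strand) encodes the ethanol-oxidising cytochrome P450 of liver, which is also expressed in fat. Its level was 48.4, 29.3, 7.11, 14.7 and 36.3 CPM in Axl KO replicates 1 to 5, and 12.3, 14.2, 39.4, 12.9 and 5.29 CPM in WT replicates 1 to 5. It was the most variable of the 8 genes, with a ratio of 9.17 between the highest and the lowest mouse. The log2 fold change was 0.65 (SE 0.52, edgeR adjusted p = 0.742), 1.26 without WT replicate 3 (edgeR unadjusted p = 0.0216, adjusted p = 0.654) and 0.13 without Axl KO replicates 1 and 2 together. With muscle genes as a covariate it was 0.43. The 5 hepatocyte genes examined beside it summed to at most 2.63 CPM in any mouse, with Ttr and Fgb at 0 in all 10.

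Slc7a10 (chromosome 7, 35186385 to 35201114, plus strand) encodes the Asc-1 transporter of serine, alanine and other small neutral amino acids. Its level was 9.57, 7.06, 4.43, 4.08 and 6.77 CPM in Axl KO replicates 1 to 5, and 4.51, 4.34, 4.51, 3.78 and 3.52 CPM in WT replicates 1 to 5. Axl KO replicates 1, 2 and 5 were above every WT mouse, and replicates 3 and 4 lay within the WT range, so the groups overlapped. The mean was 6.38 ± 2.23 CPM in Axl KO and 4.13 ± 0.452 CPM in WT (SD, n = 5 each), a fold of 1.52 with a 95% interval of 1.09 to 2.14 (exact permutation test, two-sided p = 0.0714). These levels rest on 22 to 62 counts per library, and 377 exonic bases overlap Lrp3 on the other strand. The log2 fold change was 0.41 without Axl KO replicate 1 (edgeR unadjusted p = 0.0621), 0.27 without Axl KO replicates 1 and 2 together (edgeR unadjusted p = 0.217) and 0.36 with muscle genes as a covariate (edgeR unadjusted p = 0.166).

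**Figure D2:**
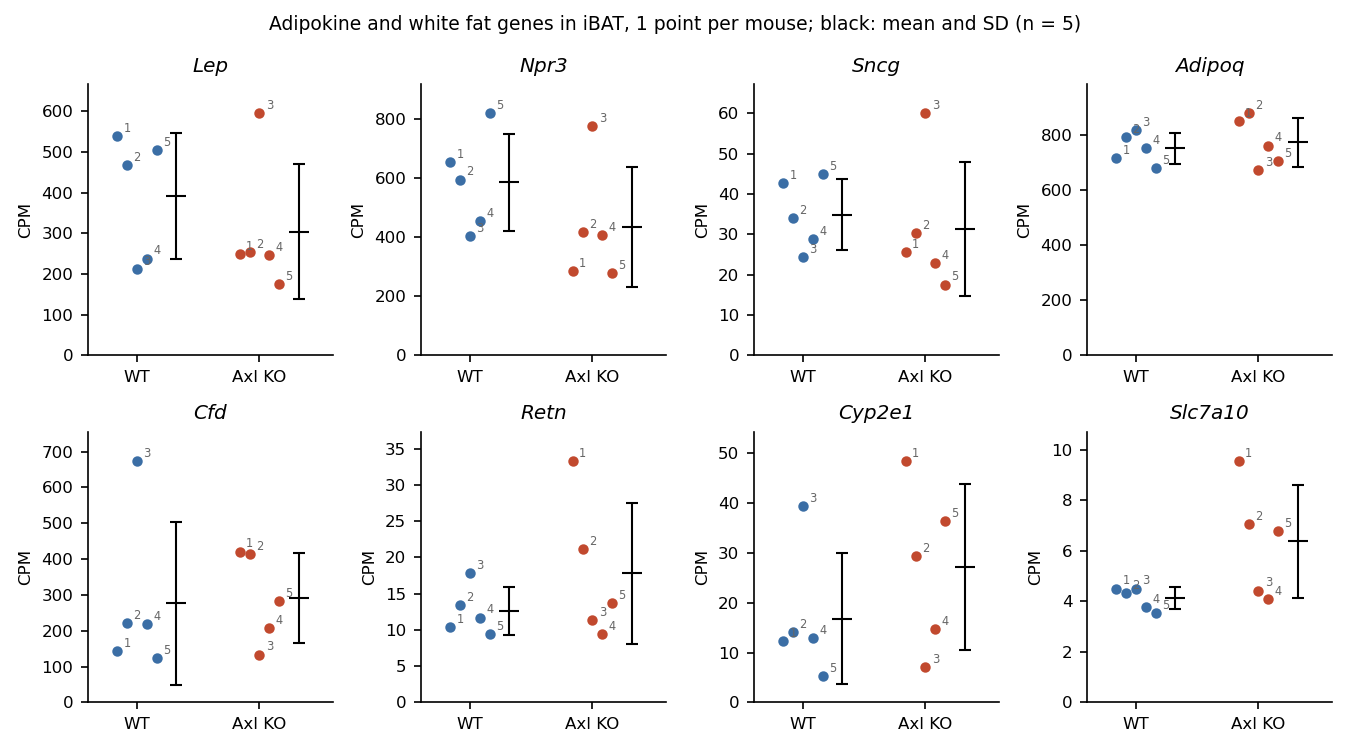
CPM of the 8 tested genes in each mouse (numbers give the replicate), WT in blue and Axl KO in red, with the mean and SD of 5 mice in black. The groups overlap in all 8 panels: Axl KO replicate 3 is the highest Axl KO mouse for Lep, Npr3 and Sncg, and WT replicate 3 the highest WT mouse for Cfd, Retn and Cyp2e1.

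**Figure D3:**
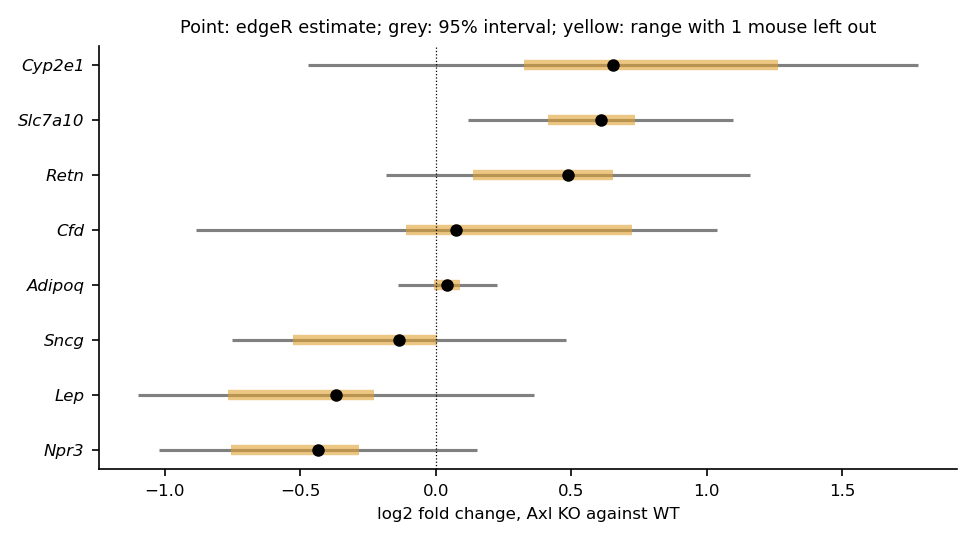
log2 fold change of the 8 tested genes, Axl KO against WT (black point), with its 95% interval (grey line) and the range of the estimate when each mouse was left out in turn (yellow bar). The interval spans 0 for 7 of the 8 genes and runs from 0.12 to 1.10 for Slc7a10, whose adjusted p was 0.571.

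Most of these genes varied more among mice of 1 genotype than typical genes did. The within-genotype SD on the log2 scale was 1.05 for Cyp2e1, at percentile 98.7 of the genes tested, and 0.84 for Cfd, at percentile 98.2. Lep followed with an SD of 0.65 (percentile 96.8), Retn with 0.57 (95.2), Sncg with 0.54 (94.1) and Npr3 with 0.51 (93.2). Slc7a10 was at percentile 81.2. Adipoq was the exception, at an SD of 0.14 and percentile 34.0, so the adiponectin gene kept an almost even level in the same mice in which the leptin gene varied 3.38-fold.

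The variation was in part shared among the 10 genes. Pearson correlations of log2 CPM over the 10 mice were computed for all 45 pairs of the 10 genes, and 15 pairs had an adjusted p under 0.05 (permutation test, Benjamini-Hochberg over 45 pairs), 10 positive and 5 negative, 11 of them also by Spearman's rho. No pair with Agt or Wfdc21 was among them. Of the 36 pairs without Lep, 11 were called. The number of called pairs fell to 6 without Axl KO replicate 1 or without WT replicate 5, to 8 without WT replicate 1, and to 9 without any of Axl KO replicate 2, Axl KO replicate 3 or WT replicate 2. It was 7 without Axl KO replicates 1 and 2 together. The share of called pairs among all genes tested was not computed, so these counts have no background beside them. Genes outside the 10 correlated with them as highly, at r up to 0.99 for Npr3 with Mpdz.

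Npr3 and Sncg rose and fell with each other (r = 0.91, permutation p = 0.00017, adjusted p = 0.00382, and rho = 0.93, permutation p = 0.0003, adjusted p = 0.0036). The relation held without the 2 mice farthest from the median of Npr3 (r = 0.87) and with the genotype means removed (r = 0.93). On the opposite side, Cfd and Cyp2e1 varied in parallel (r = 0.91, permutation p = 0.00041, adjusted p = 0.00504, and rho = 0.94, permutation p = 0.00025, adjusted p = 0.0036), with r = 0.90 without the 2 farthest mice and 0.92 with the genotype means removed. Between these 2 pairs of genes, 3 of the 4 relations were called, all negative: Npr3 with Cyp2e1, Npr3 with Cfd (r = -0.74, adjusted p = 0.046 by permutation) and Sncg with Cyp2e1 (r = -0.78, adjusted p = 0.0314 by permutation), but not Sncg with Cfd (r = -0.67, adjusted p = 0.0904 by permutation). Npr3 against Cyp2e1 gave r = -0.91 (permutation p = 0.00056, adjusted p = 0.00504) and rho = -0.94 (permutation p = 0.00025, adjusted p = 0.0036), with r = -0.81 without the 2 farthest mice and -0.90 with the genotype means removed. The end of this relation high in Npr3 held both genotypes, Axl KO replicate 3 and WT replicate 5. The end low in Npr3 held Axl KO replicates 1 and 5.

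Retn followed Cfd (r = 0.78, permutation p = 0.00675, adjusted p = 0.0276, and rho = 0.92, permutation p = 0.00057, adjusted p = 0.00513), with r = 0.87 without the 2 mice farthest from the median of Retn. Its inverse relations to Npr3 (r = -0.64, adjusted p = 0.108 by permutation) and Sncg (r = -0.36, adjusted p = 0.443 by permutation) were not called. Its relation to Slc7a10 (r = 0.86, permutation p = 0.0027, adjusted p = 0.019, and rho = 0.84, permutation p = 0.00375, adjusted p = 0.0241) dropped to r = 0.47 without the 2 farthest mice, Axl KO replicates 1 and 2, and so rested on them. Adipoq, in its narrow range, followed Cfd (r = 0.82, permutation p = 0.00457, adjusted p = 0.0228, and rho = 0.81, permutation p = 0.00734, adjusted p = 0.033) and kept r = 0.77 without the 2 farthest mice.

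Over all 10 mice, Lep was correlated with Sncg (r = 0.93, adjusted p = 0.00225 by permutation) and Npr3 (r = 0.92, adjusted p = 0.00504 by permutation). It was inverse to Cyp2e1 (r = -0.79, adjusted p = 0.0335 by permutation) and Cfd (r = -0.75, adjusted p = 0.046 by permutation). Because Lep fell into 2 separate ranges, these values span them. Its relations were also taken within the lower range of 6 mice, and the upper range held too few mice. Within the lower range, none of the 7 relations of Lep to the other tested genes had an adjusted p under 0.05, and 6 mice are too few to show that a relation is absent. The strongest was with Sncg (r = 0.84, exact permutation p = 0.0972, adjusted p = 0.476, and rho = 0.71, exact permutation p = 0.136).

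**Figure D4:**
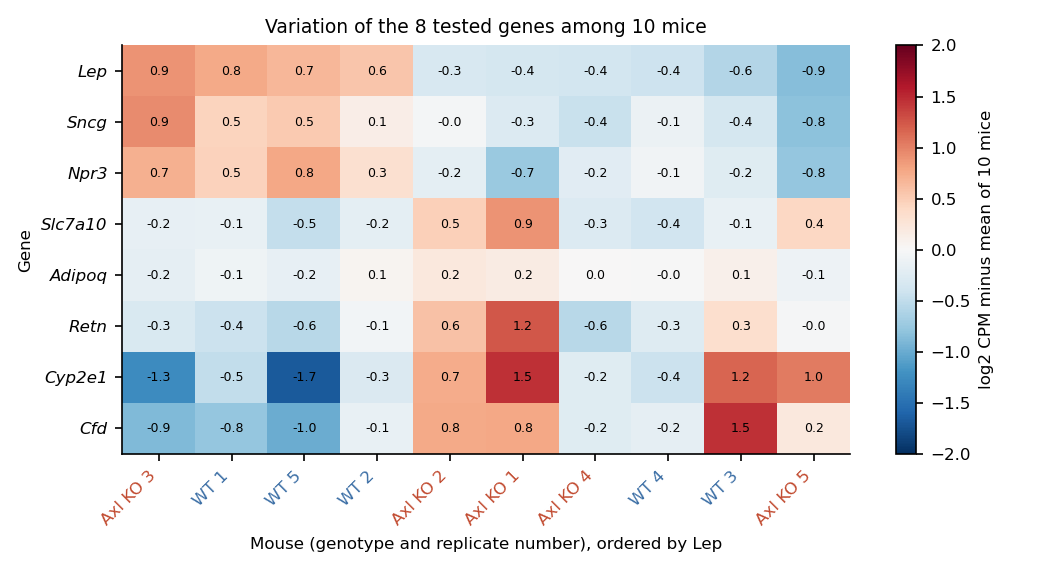
log2 CPM of the 8 tested genes in each mouse minus the mean of the 10 mice, with mice ordered by Lep (WT names in blue, Axl KO in red). Lep, Sncg and Npr3 are high in the 4 leftmost mice, 1 Axl KO and 3 WT, in which Cyp2e1 and Cfd are below their mean.

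**Figure D5:**
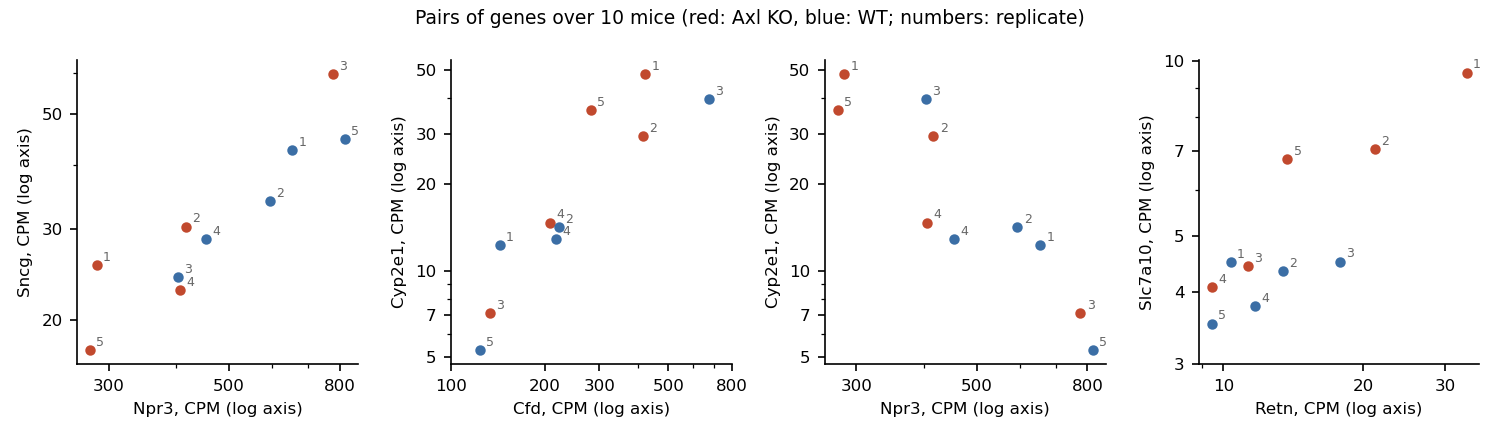
CPM of 4 pairs of genes over the 10 mice on log axes, Axl KO in red and WT in blue, with replicate numbers. Npr3 with Sncg (r = 0.91) and Cfd with Cyp2e1 (r = 0.91) rise together, Npr3 with Cyp2e1 is inverse (r = -0.91), and the relation of Retn to Slc7a10 drops to r = 0.47 without Axl KO replicates 1 and 2.

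The genes whose log2 CPM was most like each of these over the 10 mice, by Pearson's r among all genes tested, are given as a description. For Npr3 they were Mpdz (r = 0.99), a multi-PDZ scaffold protein, Angpt2 (r = 0.97), a ligand of the vessel receptor Tie2, and Stk10 (r = 0.97). For Sncg they were Vcl (r = 0.97), the focal adhesion protein vinculin, Klf6 (r = 0.95) and the collagen gene Col8a1 (r = 0.95). For Lep they were the fibronectin receptor subunit Itga5 (r = 0.97), Nek6 (r = 0.96) and Gm2415 (r = 0.95), values that span the 2 ranges of Lep. The nearest gene to Cfd was Larp4b (r = 0.94), followed by Vmn2r29 (r = 0.94), and Cyp2e1 was the third (r = 0.91). The nearest gene was Rplp2 for Retn (r = 0.95), Amy1 for Adipoq (r = 0.95), Mrpl9 for Cyp2e1 (r = 0.95) and Sdcbp for Slc7a10 (r = 0.93).

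No relation of the 8 tested genes to Ucp1 over the 10 mice passed the threshold, a comparison chosen after their values were seen. Pearson's r with Ucp1 ran from -0.41 for Npr3 (permutation p = 0.243, rho = -0.38, permutation p = 0.278) to 0.31 for Slc7a10 (permutation p = 0.374, rho = -0.018, permutation p = 0.972), with adjusted p from 0.748 to 0.900 over the 8 relations. Without the 2 mice farthest from the median of Ucp1, the same 2 for every gene, r was -0.48 for Npr3 and 0.098 for Slc7a10. The other genes moved as well: r went from -0.35 to -0.62 for Lep, whose mice lie in 2 ranges, from -0.40 to -0.52 for Sncg, from -0.16 to 0.41 for Cfd, from -0.18 to 0.32 for Adipoq, from -0.044 to 0.18 for Retn and from 0.090 to 0.23 for Cyp2e1. Ucp1 itself was at 5561 CPM in Axl KO and 4119 CPM in WT (log2 fold change 0.43, SE 0.16, edgeR unadjusted p = 0.018, adjusted p = 0.571). Of the 14 brown-fat genes, 12 had higher estimates in Axl KO and 2 lower, and 5 were higher at an unadjusted p under 0.05. None was called by edgeR, and DESeq2 called 1, Dio2. Elovl3, a fatty acid elongase gene, had the largest estimate (1.67, SE 0.49, edgeR unadjusted p = 0.005, adjusted p = 0.571). The groups did not overlap in 2 of the 14, named after their values were seen: Dio2, the thyroid hormone deiodinase (0.89, SE 0.21, edgeR adjusted p = 0.571), and Cox8b, a subunit of cytochrome c oxidase (0.24, SE 0.063, edgeR adjusted p = 0.571). Over all 13739 genes tested, 6840 had higher and 6899 lower estimates. Of these genes 4.54% were higher at an unadjusted p under 0.05, and 1.35% did not overlap between the groups. Whether the brown-fat list differed from these shares was not tested. Values without Axl KO replicates 1 and 2 together, or with muscle genes as a covariate, are not given here for Ucp1 or any related list.

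Other genes known as higher in white than in brown fat gave the same absence of calls. Of 12 such genes 8 were tested, with 1 higher and 7 lower estimates in Axl KO and a median log2 fold change of -0.031. The homeobox gene Hoxc8, a positional gene of white depots, had the largest estimate (-0.48, SE 0.29, edgeR adjusted p = 0.662), at 2.28 CPM in Axl KO and 3.20 CPM in WT. Hoxc9 and Tcf21, genes of white fat and its progenitors, had no read in any of the 10 mice, where a count of 0 allows up to 0.317 to 0.565 CPM per library, and Hoxc10 had 1 read in all. Among 21 further adipokine genes 12 were tested, 6 higher and 6 lower, none called. The largest estimate was that of the vasodilator peptide gene Adm (-0.69, SE 0.21, edgeR unadjusted p = 0.007, adjusted p = 0.571). Rbp4, the retinol carrier (0.58, SE 0.18, edgeR unadjusted p = 0.008, adjusted p = 0.571), and C1qtnf12, an adiponectin relative (0.33, SE 0.11, edgeR unadjusted p = 0.009, adjusted p = 0.571), are named after their values were seen, as the 2 adipokine genes higher at an unadjusted p under 0.05.

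General adipocyte genes were level. Of the 14 tested, 7 were higher and 7 lower with a median log2 fold change of 0.0078, and none had an unadjusted p under 0.05. The summed level of these genes was 21912 to 25269 CPM in Axl KO and 22585 to 24643 CPM in WT.

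The partners of these hormones in the same tissue were examined by role. The leptin receptor gene Lepr was below the filter, with 69 counts over 10 mice. Of the 5 leptin signalling genes tested, which include Jak2, Stat3 and the feedback inhibitor Socs3, none was called, and the largest estimate was that of the phosphatase gene Ptpn1 (0.13, SE 0.093, edgeR adjusted p = 0.703). The adiponectin receptor genes were both expressed, Adipor2 at 1065 CPM in Axl KO and 1001 CPM in WT, and Adipor1 at 183.1 and 191.0 CPM. None of the 8 adiponectin pathway genes was called, and the adaptor gene Appl1 had the largest estimate (-0.23, SE 0.094, edgeR unadjusted p = 0.031, adjusted p = 0.571).

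Of the resistin relatives and candidate resistin receptors, Retnlb had no read, and 3 of 5 genes were tested with none called. The largest estimate there was that of Tlr4 (-0.18, SE 0.11, edgeR adjusted p = 0.654). Adipsin cleaves factor B in the alternative complement pathway, and factor B is in complex with a fragment of C3. C3 was at 682.4 CPM in Axl KO and 424.3 CPM in WT (0.69, SE 0.27, edgeR unadjusted p = 0.024, adjusted p = 0.571), the largest estimate of the 8 complement genes tested, 5 higher and 3 lower. Cfb, the substrate of adipsin, was at 12.9 CPM in Axl KO and 10.8 CPM in WT (0.24, SE 0.20, edgeR adjusted p = 0.756).

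In the angiotensin system, Ren1, Agtr1b and Agtr2 had no read in any mouse, so the renin gene was undetected together with nearly undetected Agt. Of the 5 genes tested, 1 was higher and 4 lower, and the converting enzyme gene Ace had the largest estimate (-0.33, SE 0.13, edgeR unadjusted p = 0.030, adjusted p = 0.571). The natriuretic peptide genes Nppa, Nppb and Nppc also had no read, while the signalling receptor gene Npr1 was at 54.3 CPM in Axl KO and 54.1 CPM in WT. The largest estimate of the 3 genes tested there was that of the cyclic GMP-dependent kinase gene Prkg1 (-0.47, SE 0.30, edgeR adjusted p = 0.669), and Npr2 was at -0.24 (SE 0.097, edgeR unadjusted p = 0.032, adjusted p = 0.571).

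The redox partners of Cyp2e1, Por, Cyb5a and Cyb5r3, all had lower estimates in Axl KO, of which Cyb5r3 was the largest (-0.12, SE 0.12, edgeR adjusted p = 0.792). Among serine and neutral amino acid genes 8 of 9 were tested, 3 higher and 5 lower, none called. The serine synthesis gene Psph had the largest estimate (0.35, SE 0.15, edgeR unadjusted p = 0.035, adjusted p = 0.571), and Slc3a2, the heavy chain with which Slc7a10 forms its transporter, was at 0.18 (SE 0.14, edgeR adjusted p = 0.740). Of 6 other WAP domain genes only Wfdc17 was tested (0.097, SE 0.34, edgeR adjusted p = 0.958).

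Markers of other cells that fat can hold were read in the same way. Fibroblast and progenitor genes had lower estimates in Axl KO for 8 of 8 (median -0.21, none called), led by Col1a1 (-0.43, SE 0.18, edgeR adjusted p = 0.571), with summed levels of 305.2 to 434.2 CPM in Axl KO and 407.7 to 528.6 CPM in WT. Macrophage genes were 3 higher and 7 lower (median -0.061) and endothelial genes 3 higher and 3 lower (median -0.017). None of the mesothelial, neutrophil, erythroid or nerve genes was called, and no B and T cell or hepatocyte gene passed the filter. The part of these cells in the values above was not tested.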

How the data were processed

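RNA from iBAT was made into libraries with the TruSeq RNA kit, and 1 library per mouse was sequenced. The deposited values are raw whole-number counts per Ensembl gene, made by the authors and not normalized. The sources differ on how they were made: the study's methods name rRNA depletion, Trim Galore, hisat2 and GRCm38, whereas the labels and the submitters' processing notes name polyA RNA, bcl2fastq, Trimmomatic 0.36, STAR 2.6.1c, GRCm38.p5 and DESeq2. The counting tool and its strand setting are not given in the sources used here. Reads shared between overlapping genes or close copies may therefore have been lost or split.

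Gene symbols, positions and exon lengths were taken from GENCODE M21 on GRCm38, which held 41163 of the 41249 identifiers. The 13739 genes with a mean over 1 CPM were fitted with edgeR 4.0.16 in R 4.3.3 (TMM scaling, quasi-likelihood test, Axl KO against WT, no covariate), and p-values were Benjamini-Hochberg adjusted over all of them with a threshold of 0.05. CPM uses the TMM-scaled library size, and log2 CPM a prior count of 2. SE was taken from the fold change and F statistic, and intervals are 95%. Single genes were compared by the exact permutation test over all 252 regroupings, and correlations by 100000 permutations, exact for 6 mice. Intervals and floors from counts cover counting error only. The scripts were tested on simulated data. No 2 libraries agreed within sampling noise (smallest chi-square per gene 5.39).

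The 10 genes and all gene lists were chosen with earlier results of these data known. The text names the 10 genes, Axl, Ucp1, from each list the called genes, the tested gene with the largest estimate and the receptors or partners of a described gene, and up to 3 genes most correlated with each of the 8 tested genes. The alternatives tried were DESeq2 1.42.0, RLE size factors, no filter, edgeR's own filter, a robust fit, a replicate block, protein-coding genes only, adipocyte genes as a covariate, raw library totals, linear CPM and each mouse left out. Muscle genes as a covariate and Axl KO replicates 1 and 2 left out together were added after seeing the data.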

Additional observations from a re-analysis of the deposited data

Results flagged for a closer look

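Dixon's test at the 95% level was applied to linear CPM in 18 groups of 5 mice. These were Axl and the 8 tested genes, each in both genotypes. Of the 18 groups, 5 held a mouse far from the other 4, where chance gives about 0.9. The groups are not independent, since the same mice recur in correlated genes, and log2 CPM was not examined. The 5 against 0.9 is therefore not a test of an excess. In Lep, Axl KO replicate 3 stood at 594.8 CPM, against 253.9 CPM for the nearest Axl KO mouse. The same mouse stood apart in Npr3, at 776.6 CPM against 416.3 CPM. In Cfd, WT replicate 3 stood at 674.3 CPM, against 222.4 CPM for the nearest WT mouse. The same mouse stood apart in Cyp2e1, at 39.4 CPM against 14.2 CPM. In Axl, Axl KO replicate 4 was the lowest at 0.437 CPM, against 1.69 CPM for the nearest Axl KO mouse, a difference between 3 and 9 counts.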

How the results depend on the processing

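No gene of the 10 was called, and no gene had groups free of overlap, under any alternative that was run. The estimates of Lep, Npr3, Cyp2e1 and Slc7a10 kept their sign under all 20 alternatives. With muscle genes as a covariate the sign turned for Adipoq (-0.075), Retn (-0.011) and Cfd (-0.23), and without Axl KO replicates 1 and 2 together it turned for Adipoq (-0.074), Retn (-0.14) and Cfd (-0.41). With adipocyte genes as a covariate Cfd was at -0.014. With each mouse left out, the log2 fold change ranged from -0.0066 to 0.089 for Adipoq, from -0.11 to 0.72 for Cfd and from -0.53 to 0.0058 for Sncg. DESeq2 called 9 genes over the whole table against 1 with edgeR, and 1 gene of the related lists (Dio2, in the brown-fat list) against 0. The cause was not tested. The number of correlated pairs, 15, was 9 on linear CPM, 6 to 16 with 1 mouse left out and 7 without Axl KO replicates 1 and 2 together. Whether mice with the same replicate number shared more than a number was not tested. The 5 same-number correlations ran from -0.36 to 0.37, and only Axl KO replicate 2 correlated best with the WT mouse of its own number. With the replicate block 1 gene was called, as without it, and 1052 against 1154 genes had an unadjusted p under 0.05. Depth limits Agt and Wfdc21, with 31 and 58 counts in all.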
